A study of Mus musculus with 9 samples.

Results

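The genes described are the collagens other than Col4a1 and Col4a2, the chains of the collagen most abundant in vascular basement membranes. They were taken by symbol (Col, a number, a, a number) from probe sets that name 1 gene, which gave 40 of 18194 genes on the array. For each gene the probe set brightest on average across all 9 arrays was used. A log2 intensity of 4 was taken as the background level. By that measure 31 collagen genes were detected on at least 1 array and 9 were under 4 on all of them. The 29 that reached 4 on at least 3 arrays were tested among 12009 genes.

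The series compared 3 kinds of mouse brain sample on short oligonucleotide arrays, 1 array per sample and 3 biological replicates per kind. Microvascular fragments, short pieces of small brain vessels, and the brain tissue left without them (rest of brain) came from NMRI embryos at embryonic day 18.5 whose sex is not given. Adult microvascular fragments came from 2 male mice and 1 female, each 1 year old, of C57/SV129 (mixed background). Embryonic RNA was prepared with a micro kit and adult RNA with a mini kit, and about 100 ng of each was amplified. Neither sample of fragments is a pure cell type, and whether animals were pooled is not given in the sources used here. Adult and embryonic samples differ in age, strain and kit together, and these cannot be told apart. For rest of brain replicate 3 the description and the title differ in the embryonic day, and the array was kept with the group in its title. Array medians over 45101 probe sets lay between 3.58 and 3.67, and no pair of arrays was identical.

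Collagens are proteins of 3 chains wound into a triple helix and laid down in the extracellular matrix. Fibrillar collagens form the fibrils of connective tissue, the fibril-associated ones sit on those fibrils, and the network-forming ones build sheets such as the basement membrane. In the brain, collagen is found mainly in the basement membranes of vessels, in the meninges and in the adventitia of larger vessels, and the neural tissue itself holds little fibrillar collagen. Multiplexins are basement membrane collagens that carry sugar chains, and transmembrane collagens stay anchored in the cell surface.

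The collagens did not behave as 1 group. Embryonic fragments against rest of brain gave 6 collagens called higher (Col4a3, Col5a2, Col14a1, Col15a1, Col18a1 and Col27a1), 17 called lower and 6 not called, at an adjusted p under 0.05 in the limma fit over all genes. In that comparison 66.1% of all genes tested were called, 28.9% higher and 37.2% lower. The median difference of the 29 collagens was -1.06 on the log2 scale, beside -0.10 over all genes tested. In 25 of the 29 the arrays of the groups did not overlap, which was so for 76.7% of all genes.

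From embryonic to adult fragments 8 collagens rose, 11 fell and 10 were not called, where 57.1% of all genes tested were called, 27.4% up and 29.7% down. In 18 of the 29 the arrays of both ages did not overlap (62.6% of all genes). Their median difference was -0.17, and -0.09 with genes at background set to their bounds, beside -0.02 over all genes. Adult fragments against embryonic rest of brain gave 7 higher, 18 lower and 4 not called, with 76% of all genes called, 33.1% higher and 42.9% lower. The median there was -1.36, beside -0.17 over all genes, and in 25 the arrays did not overlap (79.9% of all genes). The 3 comparisons share arrays, so each collagen's values are given side by side and the comparisons are not counted as separate evidence. Col12a1, Col15a1, Col22a1 and Col25a1 reached 4 in 1 group alone, so the filter itself fixed their direction. Ranked by group mean, 16 of the 29 were highest in rest of brain, 6 in embryonic fragments and 7 in adult fragments. As these are bulk samples, fewer cells of a type and less RNA per cell cannot be told apart.

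**Figure D1:**
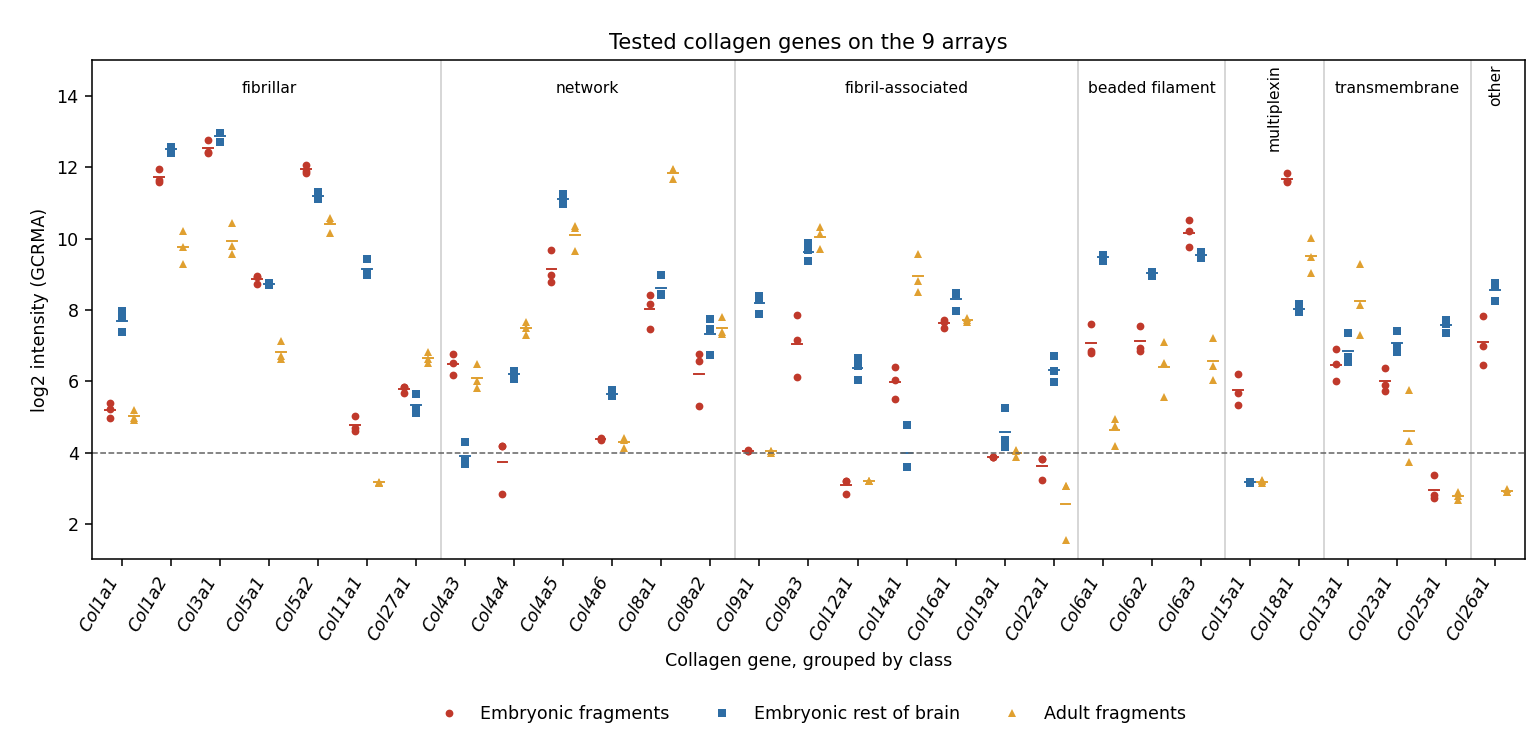
Log2 intensity (vertical axis) of the 29 tested collagen genes (horizontal axis, grouped by class) on each array, with the 3 arrays of a group as points and their mean as a short line. The dashed line marks the background level of 4. Col18a1 stands at 11.58 to 11.83 in embryonic fragments and 7.93 to 8.18 in rest of brain, while Col11a1 and Col25a1 are well above 4 in rest of brain alone or almost alone.

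**Figure D2:**
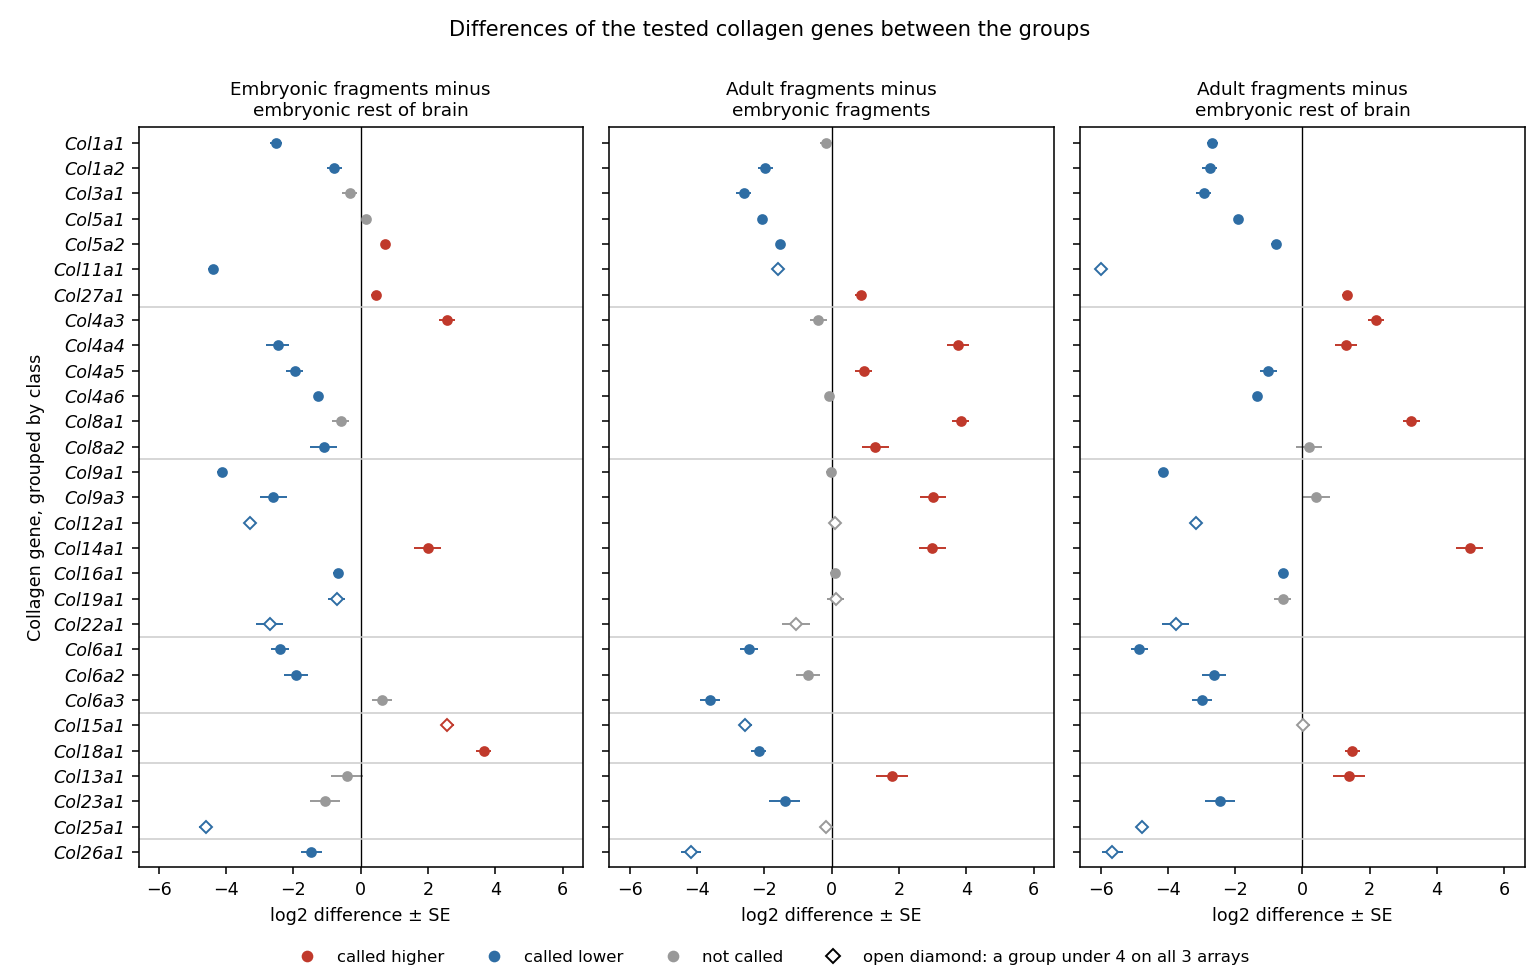
Log2 differences with the standard error of the fit (horizontal axes) for the 29 tested collagen genes (vertical axis, grouped by class) in the 3 comparisons. Red marks genes called higher, blue genes called lower and grey genes not called, and open diamonds mark genes under 4 on all 3 arrays of at least 1 group, whose fitted size is no measured fold. The 6 red points of the left panel stand against 17 blue ones.

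Of the multiplexins, Col18a1 was higher in embryonic fragments than in rest of brain and fell with age, and Col15a1 was above background in embryonic fragments alone. Col18a1, which encodes the chain from which endostatin is cleaved, read 11.83, 11.63 and 11.58 in embryonic fragments (replicates 1 to 3), 7.93, 7.98 and 8.18 in rest of brain and 10.01, 9.49 and 9.05 in adult fragments. All fragment arrays lay above all rest of brain arrays, and the embryonic ones above the adult ones. The mean of 11.68 ± 0.13 (SD, n = 3) in embryonic fragments was 12.6-fold that of 8.03 ± 0.13 in rest of brain (log2 difference 3.65 ± 0.22 SE, adjusted p = 8.28e-07). In adult fragments, at 9.51 ± 0.48, Col18a1 was 4.49-fold lower than in embryonic ones (adjusted p = 5.73e-05) and 2.80-fold higher than in embryonic rest of brain (adjusted p = 0.000265). Its other probe set gave differences of 3.73, -2.95 and 0.78 in the 3 comparisons, all called.

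Col15a1, the close relative of Col18a1 at the interface of basement membrane and fibrils, ranged from 5.35 to 6.21 in embryonic fragments. It was under 4 on every rest of brain array (3.15 to 3.18) and every adult fragment array (3.15 to 3.22). Embryonic fragments were thus the sole group in which Col15a1 was above background, and its mean there was at least 3.35-fold that of either other group. Since it passed the filter through these 3 arrays alone, this is given as a description. For comparison, Col4a1 had group means of 15.62, 12.82 and 13.93 in embryonic fragments, rest of brain and adult fragments and Col4a2 14.56, 10.38 and 11.33, the same order of groups as Col18a1.

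The bases before the starts of both multiplexin genes are given because both genes of the class had their highest mean in embryonic fragments. RefSeq (GRCm38.p6) gives 31 of the 40 collagen genes a promoter window in the table used here, in 34 windows, of which the 250 bases before the start were searched on both strands for a TATA box (TATAAA), for a CCAAT box (CCAAT) and for a GC box (GGGCGG). Matches are in capitals, and a CCAAT box on the reverse strand reads ATTGG. The letters of a GC box on that strand are CCGCCC. No searched motif overlapped another in the windows printed. Col18a1 has 2 annotated starts on the minus strand.
Col18a1, upstream start, chr10:77166531-77166780: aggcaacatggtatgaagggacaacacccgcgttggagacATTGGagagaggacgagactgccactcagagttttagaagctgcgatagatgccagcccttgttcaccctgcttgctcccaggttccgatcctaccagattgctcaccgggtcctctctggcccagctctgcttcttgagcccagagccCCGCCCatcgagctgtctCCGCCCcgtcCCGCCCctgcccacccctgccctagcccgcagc
Col18a1, downstream start, chr10:77113706-77113955: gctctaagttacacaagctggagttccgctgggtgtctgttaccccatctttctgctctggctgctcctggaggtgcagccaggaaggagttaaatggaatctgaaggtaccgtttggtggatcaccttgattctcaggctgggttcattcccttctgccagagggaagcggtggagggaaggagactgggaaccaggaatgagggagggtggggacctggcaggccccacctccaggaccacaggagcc
Col15a1, plus strand, chr4:47207762-47208011: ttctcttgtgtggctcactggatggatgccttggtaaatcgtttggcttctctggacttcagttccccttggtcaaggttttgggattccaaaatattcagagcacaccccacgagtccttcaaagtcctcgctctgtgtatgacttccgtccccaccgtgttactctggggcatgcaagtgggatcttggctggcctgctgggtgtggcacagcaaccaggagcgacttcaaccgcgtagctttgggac
The upstream Col18a1 window held 1 CCAAT box match, 210 bases before the start, and 3 GC box matches at 61, 43 and 33 bases before it, while the downstream Col18a1 window and the Col15a1 window held none of the 3. The arrays do not show from which start the Col18a1 transcripts came. Over all 32851 windows of that table, 33.8% held a CCAAT box, 32.7% a GC box and 12.4% a TATA box, and of the 34 collagen windows 11, 20 and 5 did.

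Most network-forming collagens were lower in embryonic fragments than in rest of brain, and none of the 6 tested fell from embryonic to adult fragments. In that age comparison Col4a4, Col4a5, Col8a1 and Col8a2 rose and Col4a3 and Col4a6 were not called. Embryonic fragments against rest of brain gave 1 higher (Col4a3), 4 lower (Col4a4, Col4a5, Col4a6 and Col8a2) and Col8a1 not called. The medians of the class were -1.19 and 1.12 in the embryonic and the age comparison. Of all genes tested, 37.2% were lower in the embryonic comparison, and with age 27.4% rose and 29.7% fell.

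Col8a1 encodes a short-chain collagen of vessel walls and of the corneal and lens membranes. It read 7.47, 8.17 and 8.42 in embryonic fragments, 8.45, 8.43 and 8.97 in rest of brain and 11.91, 11.97 and 11.67 in adult fragments. The adult arrays lay far above all embryonic arrays. Its mean rose from 8.02 ± 0.49 in embryonic to 11.85 ± 0.16 in adult fragments, 14.2-fold (3.83 ± 0.25, adjusted p = 4.25e-06), and was 9.41-fold above rest of brain (adjusted p = 3.54e-06). The other tested Col8a1 probe set gave a rise of 2.10. The embryonic difference of -0.60 ± 0.25 was not called (adjusted p = 0.0658), but was with replicate number as a block (0.0358) or without embryonic fragments replicate 3 (0.0261).

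The Col8a1 window is shown because this was the largest measured rise with age among the tested collagens that were above 4 in both groups.
Col8a1, minus strand, chr16:57754738-57754987: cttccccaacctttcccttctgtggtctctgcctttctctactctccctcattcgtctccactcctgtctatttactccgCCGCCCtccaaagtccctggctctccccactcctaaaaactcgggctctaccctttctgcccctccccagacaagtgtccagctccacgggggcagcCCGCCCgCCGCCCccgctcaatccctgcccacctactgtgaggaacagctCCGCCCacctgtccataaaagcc
It held 4 GC box matches, at 170, 73, 66 and 23 bases before the start.

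Col8a2, which encodes the partner chain of Col8a1, read 5.31, 6.75 and 6.57 in embryonic fragments, 7.74, 7.46 and 6.75 in rest of brain and 7.80, 7.33 and 7.38 in adult fragments. The embryonic groups touched at 6.75, while all adult arrays were above all embryonic fragment arrays. It was 2.15-fold lower in embryonic fragments than in rest of brain (adjusted p = 0.0355) and rose 2.45-fold with age (1.30 ± 0.40, adjusted p = 0.0213). The embryonic call was lost with the replicate block (adjusted p = 0.111), without replicate 1 of embryonic fragments (0.0862) and without replicate 1 (0.122) or 2 (0.0973) of rest of brain, and the age call without adult fragments replicate 1 (0.0709). Adult fragments and rest of brain were not called apart (0.19 ± 0.40, adjusted p = 0.676).

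Col4a3, Col4a4 and Col4a5 encode the chains that combine in the basement membranes of the kidney glomerulus, and Col4a5 and Col4a6 chains also combine with each other in membranes around smooth muscle. Col4a3 read 6.19, 6.77 and 6.51 in embryonic fragments, 4.31, 3.76 and 3.67 in rest of brain and 6.48, 6.01 and 5.80 in adult fragments. It was well above background in the fragments of both ages, and 2 of the 3 rest of brain arrays were under 4. Col4a3 was 5.96-fold higher in embryonic fragments (2.57 ± 0.24, adjusted p = 1.5e-05) and 4.54-fold higher in adult fragments (adjusted p = 3.62e-05) than in rest of brain, with a difference of -0.39 ± 0.24 between the ages (adjusted p = 0.201). This reading comes from a probe set designed on an expressed sequence tag, and the gene's other probe set, designed on the RefSeq mRNA, was under 4 on all 9 arrays. The place of the tag in the genome was not checked, so that it reads Col4a3 rests on the platform table alone.

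Col4a4, the neighbour of Col4a3 on chromosome 1, had another order. Its values were 4.18, 4.18 and 2.83 in embryonic fragments, 6.29, 6.27 and 6.05 in rest of brain and 7.67, 7.50 and 7.31 in adult fragments. The 3 groups did not overlap, and the lowest embryonic fragment array was under 4. Col4a4 was lower in embryonic fragments than in rest of brain (-2.47 ± 0.33, adjusted p = 0.000169) and rose with age (3.76 ± 0.33, adjusted p = 2.4e-05). These fitted differences lean on that array, and with values under 4 set to 4 they were -2.08 and 3.37, both called. Adult fragments exceeded rest of brain 2.44-fold (adjusted p = 0.00667). A second Col4a4 probe set was at background in embryonic fragments and under 4 on 2 rest of brain arrays. Its embryonic difference of -1.23 was called (adjusted p = 0.00517) but rests on values near or under 4. It had a mean of 5.51 ± 0.67 in adult fragments, a fitted rise of 2.71 from background (adjusted p = 8.59e-05). The remaining one was under 4 on all arrays.

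Col4a5 read 8.99, 8.78 and 9.67 in embryonic fragments, 11.25, 11.12 and 10.97 in rest of brain and 10.34, 10.29 and 9.66 in adult fragments. Every rest of brain array lay above every fragment array, and the ages overlapped at 9.66 to 9.67. It was 3.91-fold lower in embryonic fragments (-1.97 ± 0.26, adjusted p = 0.000142) and 2.02-fold lower in adult fragments (adjusted p = 0.00609) than in rest of brain. The rise of 0.95 ± 0.26 with age (adjusted p = 0.0126) was not seen by the gene's other probe set, which gave 0.03 (adjusted p = 0.901). Col4a6, which starts beside Col4a5 on the opposite strand of the X chromosome, was dimmer, at 4.35 to 4.40 in embryonic fragments, 5.58 to 5.75 in rest of brain and 4.13 to 4.40 in adult fragments. It was likewise lower in the fragments, 2.41-fold in embryos (adjusted p = 7.69e-06) and 2.57-fold in adults (adjusted p = 3.8e-06) against rest of brain.

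The windows of the Col4a5 and Col4a6 pair are printed because these neighbours were both lower in fragments of both ages.
Col4a5, plus strand, chrX:141475169-141475418: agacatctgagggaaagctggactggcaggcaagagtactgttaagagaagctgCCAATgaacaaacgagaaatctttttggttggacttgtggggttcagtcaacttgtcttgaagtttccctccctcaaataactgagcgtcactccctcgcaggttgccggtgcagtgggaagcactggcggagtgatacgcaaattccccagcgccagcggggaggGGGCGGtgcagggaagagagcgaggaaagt
Col4a6, minus strand, chrX:141474077-141474326: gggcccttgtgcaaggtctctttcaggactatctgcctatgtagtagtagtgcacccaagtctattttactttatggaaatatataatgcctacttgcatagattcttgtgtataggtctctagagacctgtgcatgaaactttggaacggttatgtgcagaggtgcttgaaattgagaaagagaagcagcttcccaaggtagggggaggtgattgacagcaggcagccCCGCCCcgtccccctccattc
The Col4a5 window held a CCAAT box match 196 bases and a GC box match 30 bases before the start, and the Col4a6 window a GC box match 21 bases before it. In the RefSeq table of GRCm38.p6, 6 pairs of the 40 genes are next neighbours among protein-coding genes: Col9a1 with Col19a1, Col3a1 with Col5a2, Col4a4 with Col4a3, Col6a2 with Col6a1, Col6a5 with Col6a4 and Col4a6 with Col4a5.

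Most fibrillar collagens fell with age in the fragments. Of the 7 tested, 5 fell (Col1a2, Col3a1, Col5a1, Col5a2 and Col11a1), Col27a1 rose and Col1a1 was not called, and the median was -1.60 (-1.53 with Col11a1 at its bound). Of all genes tested, 29.7% fell with age. In the embryo, Col5a2 and Col27a1 were higher in fragments than in rest of brain, Col1a1, Col1a2 and Col11a1 lower, and Col3a1 and Col5a1 not called. All but Col27a1 were lower in adult fragments than in embryonic rest of brain.

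Col3a1, the homotrimeric collagen of distensible tissues such as vessel walls, read 12.42, 12.44 and 12.78 in embryonic fragments, 12.70, 12.96 and 12.95 in rest of brain and 9.78, 10.44 and 9.57 in adult fragments. The embryonic groups overlapped and the adult arrays stood below both. It fell 6.11-fold with age (-2.61 ± 0.22, adjusted p = 1.88e-05), while the embryonic difference of -0.33 ± 0.22 was not called (adjusted p = 0.225). Its second tested probe set gave -3.36 and -0.24.

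Of the chains of type I collagen, the main collagen of connective tissue, Col1a2 fell with age and Col1a1 was not called, a difference between the genes that was not tested. Col1a2 read 11.58, 11.66 and 11.95 in embryonic fragments, 12.39, 12.58 and 12.58 in rest of brain and 9.76, 10.22 and 9.30 in adult fragments. No arrays overlapped between its groups. Col1a2 was 1.73-fold lower in embryonic fragments than in rest of brain (adjusted p = 0.0116) and fell a further 3.92-fold with age (-1.97 ± 0.22, adjusted p = 9.54e-05). Its second tested probe set gave -0.69 in the embryo (adjusted p = 0.0207) and -2.57 with age, both called. With the mean of all its probe sets the embryonic difference was -0.49 and not called (adjusted p = 0.126). That mean takes in a probe set under 4 on all embryonic arrays.

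Col1a1 read 5.22, 4.96 and 5.38 in embryonic fragments, 7.38, 7.77 and 7.96 in rest of brain and 5.18, 4.98 and 4.92 in adult fragments. Fragments of both ages were low and overlapped, and rest of brain was high. The gene was 5.73-fold lower in embryonic fragments (-2.52 ± 0.18, adjusted p = 2.09e-06) and 6.39-fold lower in adult fragments (adjusted p = 1.08e-06) than in rest of brain. Between the ages it differed by -0.16 ± 0.18 (adjusted p = 0.484). The other Col1a1 probe set was not tested. It was under 4 on all fragment arrays and had a mean of 4.15 in rest of brain, with 1 of those arrays under 4.

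The Col1a2 and Col3a1 windows are shown as examples of fibrillar genes that fell with age.
Col1a2, plus strand, chr6:4505368-4505617: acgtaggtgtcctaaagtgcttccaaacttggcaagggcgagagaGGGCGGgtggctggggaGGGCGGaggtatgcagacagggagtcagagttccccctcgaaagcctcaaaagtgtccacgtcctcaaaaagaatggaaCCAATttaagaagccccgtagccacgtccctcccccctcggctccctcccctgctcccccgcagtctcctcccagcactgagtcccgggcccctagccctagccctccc
Col3a1, plus strand, chr1:45311288-45311537: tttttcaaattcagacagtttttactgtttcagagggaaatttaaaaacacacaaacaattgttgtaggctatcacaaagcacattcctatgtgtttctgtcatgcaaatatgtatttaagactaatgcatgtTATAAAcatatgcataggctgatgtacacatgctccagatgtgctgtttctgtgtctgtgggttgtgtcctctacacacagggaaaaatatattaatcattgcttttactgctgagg
The Col3a1 window held a TATA box match 117 bases before the start, and that of Col1a2 held a CCAAT box match at 109 and GC box matches at 205 and 188 bases before it.

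The chains of type V collagen, which nucleates fibrils together with type I, both fell with age. Col5a2 read 11.90, 11.85 and 12.07 in embryonic fragments, 11.12, 11.32 and 11.19 in rest of brain and 10.59, 10.16 and 10.49 in adult fragments. The groups did not overlap, and the order was embryonic fragments, rest of brain, adult fragments. It was 1.66-fold higher in embryonic fragments than in rest of brain (adjusted p = 0.00127) and fell 2.88-fold with age (-1.53 ± 0.14, adjusted p = 2.54e-05). Its other probe set gave the same fall (-1.65) but an embryonic difference of 0.32 that was not called (adjusted p = 0.361).

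Col5a1 read 8.92, 8.72 and 8.96 in embryonic fragments, 8.71, 8.71 and 8.75 in rest of brain and 6.71, 7.12 and 6.62 in adult fragments. The embryonic arrays overlapped and the adult ones stood lower. The fall with age was 4.15-fold (-2.05 ± 0.14, adjusted p = 6.01e-06), and the embryonic difference was 0.15 ± 0.14 (adjusted p = 0.393). The second tested Col5a1 probe set gave a larger fall (-3.10) and a called embryonic difference of 0.54 (adjusted p = 0.0245).

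Col11a1, a fibril-nucleating chain known from cartilage and also made elsewhere in embryos, read 4.68, 4.61 and 5.02 in embryonic fragments, 9.07, 9.43 and 8.98 in rest of brain and 3.16, 3.16 and 3.19 in adult fragments. It was high in rest of brain, low in embryonic fragments and at background in adult fragments. Col11a1 was 21.0-fold lower in embryonic fragments than in rest of brain (-4.39 ± 0.15, adjusted p = 2.6e-08) and at least 35.7-fold lower in adult fragments (adjusted p = 3.07e-09). The fall between the ages was at least 1.70-fold (adjusted p = 3.92e-05). Its second tested probe set gave -4.54 for the embryonic comparison.

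Col27a1, a late-described fibrillar chain, was the one fibrillar collagen that rose with age. It read 5.68, 5.85 and 5.85 in embryonic fragments, 5.63, 5.12 and 5.24 in rest of brain and 6.51, 6.62 and 6.83 in adult fragments. The rise was 1.82-fold (0.86 ± 0.15, adjusted p = 0.0014) by this probe set and 2.69 on the log2 scale by the other tested one, for which 1 embryonic fragment array was under 4. Its embryonic difference of 0.46 ± 0.15 (adjusted p = 0.0264) was not called with the replicate block (0.0704), by the other probe set (0.0620, rest of brain at background), or when 1 of these arrays was left out: embryonic fragments replicate 2 (0.0747), its replicate 3 (0.0739), rest of brain replicate 2 (0.0941) and its replicate 3 (0.0796).

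Of the 7 fibril-associated collagens tested, 6 were lower in embryonic fragments than in rest of brain, and Col14a1 was higher. Over all genes tested 37.2% were lower and 28.9% higher. Of the 6, the filter fixed the direction of Col12a1 and Col22a1, and Col19a1 lost its call with a floor at 4. The median of the class was -2.59, or -2.32 with genes at background at their bounds. With age Col9a3 and Col14a1 rose and the other 5 were not called, 3 of them with embryonic fragments under 4 on all arrays.

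Col14a1, which binds decorin on fibril surfaces, read 5.49, 6.03 and 6.41 in embryonic fragments, 3.60, 4.78 and 3.59 in rest of brain and 9.57, 8.82 and 8.51 in adult fragments. The groups stood in 3 steps without overlap, with 2 of the rest of brain arrays under 4. It was 3.97-fold higher in embryonic fragments than in rest of brain (1.99 ± 0.40, adjusted p = 0.00204), rose 7.93-fold with age (2.99 ± 0.40, adjusted p = 0.000276) and was 31.5-fold higher in adult fragments than in rest of brain (adjusted p = 4.29e-06). These folds against rest of brain lean on values at background, and the other tested probe set, under 4 on all rest of brain arrays, gave smaller fitted differences in the same directions (0.88, 1.94 and 2.82).

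Col9a1 and Col9a3 encode chains of type IX collagen, which coats cartilage fibrils and is also made in the eye and inner ear. Col9a1 read 8.27, 8.40 and 7.88 in rest of brain, and in the 6 fragment arrays it lay just above the background level, at no more than 4.06. It was 17.6-fold lower in embryonic and 17.8-fold lower in adult fragments than in rest of brain (adjusted p = 1.88e-08 and 1.28e-08). With fragments this close to 4, these folds say little more than a bound.

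Col9a3 read 6.11, 7.86 and 7.16 in embryonic fragments, 9.87, 9.67 and 9.38 in rest of brain and 10.15, 9.70 and 10.31 in adult fragments. Unlike Col9a1, it was high in adult fragments, where its arrays overlapped those of rest of brain. The gene was 6.04-fold lower in embryonic fragments than in rest of brain (adjusted p = 0.000363) and rose 8.05-fold with age (3.01 ± 0.39, adjusted p = 0.000237). Adult fragments and rest of brain differed by 0.41 ± 0.39 (adjusted p = 0.363), and the second tested probe set gave -0.43 for that difference. The remaining chain gene, Col9a2, was under 4 on all arrays.

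Col12a1, Col22a1 and Col19a1 were above background mainly in rest of brain. Col12a1, a chain of dense connective tissue, read 6.44, 6.66 and 6.03 in rest of brain and no higher than 3.21 in fragments of either age. Its level in rest of brain was at least 5.18-fold that of either. Col22a1, known from tissue junctions, read 6.70, 6.30 and 5.98 in rest of brain, at least 5.01-fold the fragments of either age, which did not exceed 3.82. Since Col12a1 and Col22a1 passed the filter through the rest of brain arrays alone, these levels are given as a description.

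Col19a1, a scarce chain of basement membrane zones, was dim throughout, at 4.14 to 5.26 in rest of brain, 3.87 to 3.88 in embryonic fragments and 3.87 to 4.06 in adult fragments. Its embryonic difference was called in the fit on unchanged values (adjusted p = 0.0338), but not with values under 4 set to 4 (-0.59, adjusted p = 0.0647). That call was also lost with the replicate block (0.0667) and without any 1 of the embryonic fragment arrays (0.0710 to 0.0753). Col16a1 read 7.51, 7.67 and 7.72 in embryonic fragments, 7.98, 8.45 and 8.48 in rest of brain and 7.78, 7.72 and 7.67 in adult fragments. All fragment arrays lay below all rest of brain arrays, by 1.60-fold in embryos (adjusted p = 0.00318) and 1.49-fold in adults (adjusted p = 0.00606).

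Type VI collagen forms beaded filaments around cells from Col6a1, Col6a2 and a longer chain such as Col6a3. In the embryo Col6a1 and Col6a2 were lower in fragments than in rest of brain and Col6a3 was not called. Col6a1 read 6.79, 6.84 and 7.60 in embryonic fragments, 9.36, 9.55 and 9.52 in rest of brain and 4.76, 4.94 and 4.19 in adult fragments. The groups stood in 3 steps without overlap. It was 5.28-fold lower in embryonic fragments than in rest of brain (-2.40 ± 0.26, adjusted p = 3.53e-05), fell 5.47-fold with age (-2.45 ± 0.26, adjusted p = 6.35e-05) and was 28.9-fold lower in adult fragments than in rest of brain (adjusted p = 2.51e-07).

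Col6a2 read 6.84, 6.94 and 7.56 in embryonic fragments, 8.95, 9.06 and 9.08 in rest of brain and 6.52, 7.11 and 5.57 in adult fragments. Rest of brain was above all fragment arrays, and the ages overlapped. The embryonic difference was 3.77-fold (-1.91 ± 0.36, adjusted p = 0.00127). The second tested Col6a2 probe set gave -3.01, with fragments of both ages under 4 on all arrays. The age difference of -0.72 ± 0.36 was not called (adjusted p = 0.119) and came to -1.07 without adult fragments replicate 2 (adjusted p = 0.0209).

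Col6a3 read 9.77, 10.21 and 10.52 in embryonic fragments, 9.46, 9.63 and 9.51 in rest of brain and 6.04, 7.21 and 6.42 in adult fragments. Embryonic fragments were highest here, without overlap with rest of brain. That difference of 0.63 ± 0.29 was not called (adjusted p = 0.0887), but was with the replicate block (0.0290) and without embryonic fragments replicate 1 (0.0467) or adult fragments replicate 2 (0.0250). The fall with age was 12.2-fold (-3.61 ± 0.29, adjusted p = 1.45e-05). Col6a4 and Col6a5 were under 4 on all arrays.

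The transmembrane collagens tested went different ways. Col25a1, the precursor of a peptide found in amyloid plaques and a chain made by neurons, read 7.36, 7.73 and 7.61 in rest of brain. Fragments of both ages were at background, at 2.72 to 3.36 in embryos and 2.68 to 2.90 in adults. Its level in rest of brain was at least 11.8-fold that of either. As Col25a1 passed the filter through the rest of brain arrays alone, this is given as a description. The gene's other probe set was under 4 on all arrays, those of rest of brain included.

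Col23a1 read 6.38, 5.72 and 5.90 in embryonic fragments, 7.40, 6.96 and 6.83 in rest of brain and 4.33, 5.75 and 3.75 in adult fragments. It was 5.48-fold lower in adult fragments than in rest of brain (-2.45 ± 0.46, adjusted p = 0.00102), with 1 adult array under 4. The age difference of -1.39 ± 0.46 (adjusted p = 0.0282) was lost without replicate 1 (0.0857) or 3 (0.0576) of embryonic fragments and without replicate 1 (0.0855) or 3 (0.0812) of adult fragments. The embryonic difference of -1.06 ± 0.46, whose arrays did not overlap, was not called (adjusted p = 0.0681) but was with the replicate block on the embryonic arrays (0.00149), and without adult fragments replicate 2 (0.00573) or 3 (0.0337). Another Col23a1 probe set gave called differences of -1.40 with age (adjusted p = 0.00258) and -1.27 in the embryo (0.00338). The remaining one, under 4 on all 3 adult arrays, gave -0.96 with age (0.0247) and -0.74 in the embryo, the latter not called (0.0590).

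Col13a1, a chain known from the neuromuscular junction and cell adhesions, read 6.48, 6.90 and 6.0 in embryonic fragments, 6.54, 6.68 and 7.35 in rest of brain and 7.30, 9.28 and 8.15 in adult fragments. The embryonic groups overlapped (-0.40 ± 0.47, adjusted p = 0.493) and all adult arrays were above the embryonic fragments. It rose 3.44-fold with age (1.78 ± 0.47, adjusted p = 0.0114). Against rest of brain, adult fragments were 2.61-fold higher (adjusted p = 0.0254). That call did not hold without adult fragments replicate 2 (0.0672), nor without replicate 1 (0.0831) or 2 (0.0740) of rest of brain.

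Col26a1, which belongs to none of the other classes, read 6.46, 6.99 and 7.83 in embryonic fragments, 8.25, 8.66 and 8.77 in rest of brain and 2.88, 2.89 and 2.96 in adult fragments. It was above background on every embryonic array and on no adult array. Embryonic fragments were 2.77-fold lower than rest of brain (-1.47 ± 0.31, adjusted p = 0.00252). The fall to adult fragments was at least 8.52-fold (adjusted p = 8.02e-06).

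The genes not detected were Col5a3, Col6a4, Col6a5, Col9a2, Col10a1, Col11a2, Col17a1, Col20a1 and Col24a1. Col7a1, the anchoring fibril chain, reached 4.84 on embryonic fragment replicate 3 alone, and Col2a1, the main collagen of cartilage, 4.13 on rest of brain replicate 1 alone, so both were detected but not tested. Around the threshold, the highest undetected gene was Col5a3 at 3.69 and the lowest detected one Col2a1.

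The 40 genes have 79 probe sets that name them alone, and 26 genes have more than 1. For 14 tested genes at least 2 probe sets could be tested, and in 0 of their comparisons were probe sets called in opposite directions. Among those 14, Col18a1, Col11a1 and Col1a2 gave nearly the same embryonic difference by each probe set, while Col4a4, Col4a5, Col5a1, Col8a1, Col14a1 and Col27a1 differed by about 1 log2 unit or more in the age comparison. For Col4a3, Col4a6, Col9a1, Col12a1, Col19a1, Col22a1, Col25a1 and Col26a1 every other probe set was under 4 on all 9 arrays, so their values rest on 1 probe set each. For 8 of the tested genes the identifier of the probe set used marks it as sharing probes between transcripts (Col1a2, Col3a1, Col6a2, Col9a3, Col14a1, Col16a1, Col22a1 and Col26a1).

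**Figure D3:**
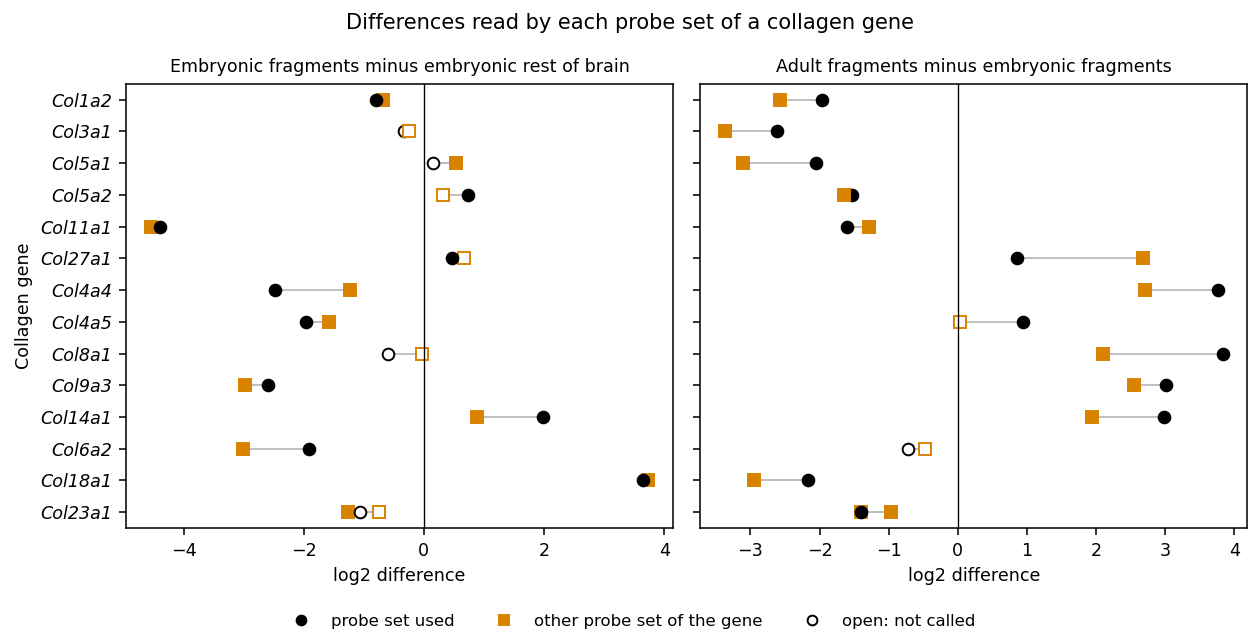
Log2 differences (horizontal axes) read by each tested probe set of the 14 collagen genes with more than 1 (vertical axis), in the embryonic comparison (left) and between the ages (right). Black circles are the probe sets used, orange squares the others, and open symbols were not called. For Col4a5 the probe sets gave 0.95 and 0.03 between the ages, and for Col18a1 3.65 and 3.73 in the embryonic comparison.

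The genes that modify, process, crosslink, bind or sense collagen were looked at as 5 lists, of which 35 genes were tested. In the embryonic comparison 18 were higher in fragments, 10 lower and 7 not called. Over all genes tested 28.9% were higher and 37.2% lower. With age 13 rose, 15 fell and 7 were not called, beside 27.4% and 29.7% of all genes, and adult fragments against rest of brain gave 14 higher, 10 lower and 11 not called, beside 33.1% and 42.9%. The enzymes and chaperones that prepare the chains inside the cell made up much of the first count, with 11 of 17 higher in embryonic fragments and 2 lower. With age 10 of these 17 fell and 3 rose.

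Plod1, a lysyl hydroxylase, had means of 10.97 ± 0.17, 7.27 ± 0.28 and 7.54 ± 0.79 in embryonic fragments, rest of brain and adult fragments (SD, n = 3). It was 13.0-fold higher in embryonic fragments than in rest of brain (adjusted p = 1.55e-05) and fell 10.8-fold with age (adjusted p = 5.4e-05). With the mean of all Plod1 probe sets these log2 differences were smaller, at 1.85 and -1.72, both called. Plod2, another lysyl hydroxylase, fell 4.08-fold with age (adjusted p = 8.74e-05). Serpinh1, the collagen-specific chaperone, named here with its values known, was 4.76-fold higher in embryonic fragments than in rest of brain (adjusted p = 4.26e-05) and fell 3.82-fold with age (adjusted p = 0.000204).

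Of these enzymes, P4ha2 and P3h2 went the other way with age, while Colgalt2, P4ha3 and P3h3 are given for the embryonic comparison. P4ha2, a prolyl hydroxylase subunit, rose from 5.17 ± 0.37 in embryonic to 8.71 ± 0.32 in adult fragments, 11.7-fold (adjusted p = 3.81e-06). P3h2, a prolyl hydroxylase known for acting on basement membrane collagen, rose 4.57-fold (adjusted p = 1.34e-05) and was at background in rest of brain. Colgalt2, which adds galactose to hydroxylysine, was 6.74-fold higher in embryonic fragments than in rest of brain (adjusted p = 3e-06). P4ha3 was 5.61-fold lower there (adjusted p = 2.57e-05), and P3h3 1.81-fold lower (adjusted p = 0.0183), which did not hold without replicate 1 (0.0638) or 2 (0.0559) of embryonic fragments, nor without replicate 3 of rest of brain (0.0675).

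Of the 4 tested genes that trim procollagen, 1 was higher and 2 lower in embryonic fragments, and 2 rose and 1 fell with age. Adamts3, an N-propeptidase, had a mean of 8.95 ± 0.27 in rest of brain and was at background in fragments of both ages, at least 30.8-fold lower. It passed the filter through the rest of brain arrays alone, so the filter fixed its direction. The other gene called lower, Pcolce2, was at background in embryonic fragments and had a mean of 4.14 in rest of brain, so that call says little. Bmp1, the C-proteinase, fell 7.83-fold with age (adjusted p = 5.16e-06). Pcolce2, an enhancer of that enzyme, rose from background to 8.79 ± 0.41 in adult fragments, at least 27.7-fold (adjusted p = 6.89e-08).

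Among the 3 tested crosslinking oxidases, 2 were lower and 1 higher in embryonic fragments. Loxl1 was 13.1-fold lower than in rest of brain (adjusted p = 5.01e-07), with 1 fragment array under 4. Lox, the main lysyl oxidase, was 3.37-fold lower in embryonic fragments (adjusted p = 2.38e-05), and rose with age to the level of rest of brain, at 8.31 ± 0.37 against 8.31 ± 0.07. Loxl3 was 1.82-fold higher in embryonic fragments (adjusted p = 0.0162), which was not called without replicate 2 (0.0588) or 3 (0.0593) of embryonic fragments, nor without replicate 3 of rest of brain (0.0551).

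Of 5 proteins that bind fibrils, Sparc and Bgn were higher and Dcn, Lum and Fmod lower in embryonic fragments, and with age 3 rose and 2 fell. Sparc had means of 14.68 ± 0.16, 11.71 ± 0.14 and 13.36 ± 0.28 in embryonic fragments, rest of brain and adult fragments. Dcn had 9.15 ± 0.23, 11.26 ± 0.16 and 11.06 ± 0.13 in the same order. The proteoglycan Dcn was thus 4.30-fold lower in embryonic fragments than in rest of brain (adjusted p = 2.27e-06).

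The 6 tested collagen receptors gave 3 higher and 1 lower in embryonic fragments, and 4 that rose and 1 that fell with age. Itga1, an integrin chain that binds type IV collagen, was 38.9-fold higher in embryonic fragments than in rest of brain (11.01 ± 0.05 against 5.73 ± 0.92, adjusted p = 3.71e-06). Ddr1, a receptor kinase, was 12.2-fold lower (adjusted p = 4.09e-06). Its rise of 1.97 with age was 0.09 when probe sets with shared probes were left out (adjusted p = 0.562). Lair1, a receptor of immune cells, rose by 3.73 ± 0.69 with age (adjusted p = 0.00166), and its embryonic fragment arrays spread widely (6.14 ± 1.43). Without embryonic fragments replicate 1 that rise was 2.92.

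Marker genes of the cells that the samples could hold moved with the groups. Their part in the collagen results was not tested. All 8 endothelial markers and the 7 tested of 8 pericyte markers were higher in embryonic fragments than in rest of brain (Anpep was under 4 on all arrays). The summed endothelial level, as the log2 of summed linear intensities, was 16.66 to 16.82 in embryonic fragments, 8.80 to 9.57 in rest of brain and 16.65 to 16.81 in adult fragments. All 7 neuronal, 6 progenitor, 5 tested astrocyte and 5 tested oligodendrocyte-lineage markers were lower in embryonic fragments. The progenitor marker Dlx2, for one, passed the filter through the rest of brain arrays alone, so the filter fixed its direction. In this comparison 28.9% of all genes tested were higher and 37.2% lower. The vascular markers were thus high in the samples labelled as fragments and the neural ones in the remaining tissue.

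Fibroblast and meningeal markers, among them Dcn and Lum from the fibril-binding list, gave 2 higher, 8 lower and 2 not called in embryonic fragments against rest of brain, with a median of -2.07. Their summed level was 13.96 to 14.25 in embryonic fragments, 14.16 to 14.32 in rest of brain and 14.57 to 15.17 in adult fragments. These sums follow the brightest genes, such as Mgp (mean of 14.11 in adult fragments) and Igf2 (13.75 in embryonic fragments). The mean of the log2 values gave another order, at 8.08 to 8.56, 9.59 to 9.75 and 8.56 to 8.79 in the same groups. Adult fragments against rest of brain gave 2 higher, 8 lower and 2 not called. With age 4 of the 12 rose and 3 fell, beside the 5 fibrillar collagens that fell. Of 8 cartilage and bone genes found, Acan, Matn1, Matn3, Comp, Sp7 and Ibsp were under 4 on all arrays. The 2 tested, Cnmd and Alpl, were both called lower in embryonic fragments than in rest of brain, as Col9a1 and Col11a1 were. Cnmd, a cartilage gene, had a mean of 4.97 ± 0.29 in rest of brain and was at background in fragments of both ages, at least 1.95-fold lower. It passed the filter through the rest of brain arrays alone, so the filter fixed its direction. Alpl, a phosphatase of bone that endothelium also makes, was near or under 4 on the embryonic arrays, so its embryonic call says little. It rose with age to 9.24 ± 0.29, at least 37.7-fold. The part of such cells in the differences of Col9a1 and Col11a1 was not tested.

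Most smooth muscle and all choroid plexus markers were higher in adult than in embryonic fragments. In that comparison 8 collagens rose and 11 fell, and over all genes tested 27.4% rose and 29.7% fell. Of 6 smooth muscle markers 5 rose and 1 fell with age, and their summed level went from 12.39 to 12.94 in embryonic to 15.51 to 15.66 in adult fragments. Among those that rose, Cnn1 passed the filter through the adult arrays alone, so the filter fixed its direction. All 7 choroid plexus markers rose, with sums of 15.71 to 16.23 in embryonic and 16.86 to 16.93 in adult fragments. Of the 5 tested astrocyte markers 4 rose with age, from sums of 9.06 to 10.21 up to 12.55 to 13.29. The 6 macrophage and microglia markers were all higher in embryonic fragments than in rest of brain, and with age 2 fell and 4 were not called. Blood cell markers gave 2 of 3 tested higher in embryonic fragments and 2 that fell with age, with Hba-a1 under 4 on all arrays.

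**Figure D4:**
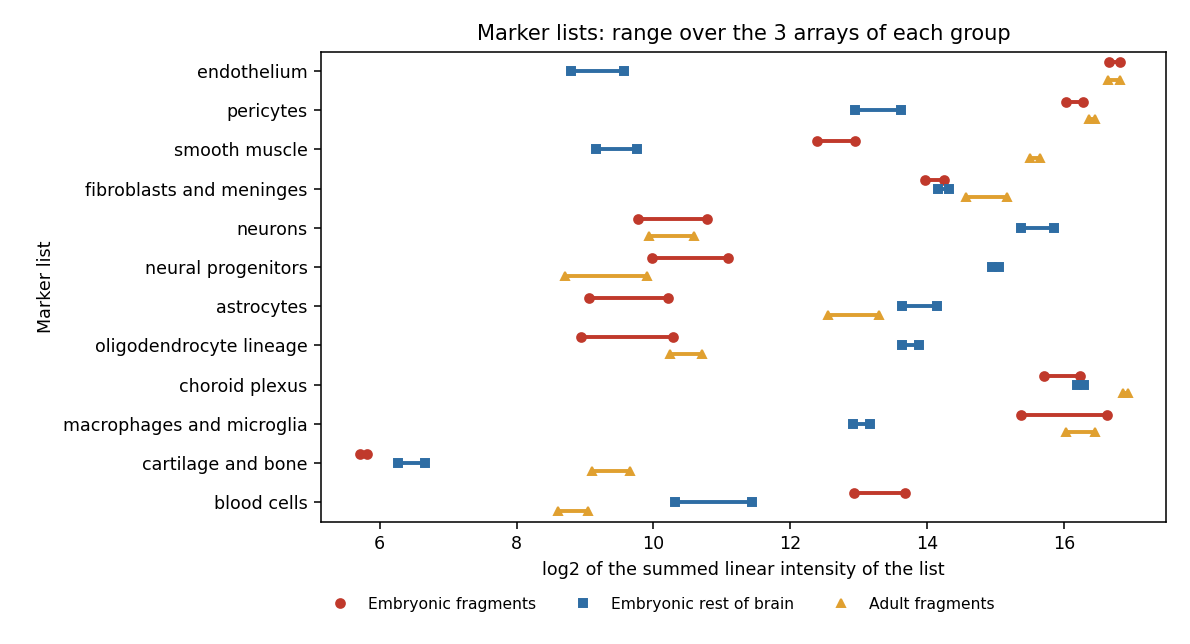
Lowest and highest of the 3 arrays of each group (joined points) in the log2 of the summed linear intensity (horizontal axis) of 12 lists of marker genes (vertical axis). Endothelial sums lie at 16.66 to 16.82 in embryonic fragments and 8.80 to 9.57 in rest of brain, and smooth muscle and choroid plexus sums are highest in adult fragments.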

How the data were processed

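The authors deposited log2 intensities, 1 per probe set and array. Per the submitters' processing notes R 2.4.1 and GCRMA 2.6.0 were used, a method that corrects for background and normalizes by quantiles, so a change in total RNA per cell cannot be seen. The log2 scale was inferred from the range of the values, and scan dates were not analysed here. Of 45101 probe sets, 34958 have a single gene in the platform table. Groups follow the titles. All 9 arrays entered 1 limma 3.58.1 fit in R 4.3.3 (lmFit and eBayes, 2-sided), adjusted by Benjamini-Hochberg over 12009 genes with at least 4 on at least 3 arrays, with calls made at adjusted p-values under 0.05. The fit was tested on simulated data. A group under 4 on all 3 arrays was taken as at background, and "at least" folds set the other group's mean against 4.

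The members, classes, partner lists and marker lists come from textbook knowledge and were chosen with earlier results of these data known. Every member could be named, and per partner list and comparison the 2 called genes with the largest difference in each direction could be, where the higher group averaged 6 or more, from which a selection is given. Embryonic arrays with the same replicate number deviated together over the 12009 genes (correlations of 0.19, 0.20 and 0.22). Those with different numbers had -0.21 to -0.02. Embryonic and adult fragments, which cannot be pairs, reached 0.21 as well (replicate 3 with 3 and replicate 1 with 2). The correlations thus do not establish pairs. The number was taken to pair embryonic fragments and rest of brain in an alternative fit alone. The adult numbers were not taken as pairs. Alternatives were the filter, a floor at 4, the normalization, array weights, the choice of probe set, the groups in the fit, the replicate block and leaving out each array. The number of arrays limits the precision. Protein sequences were not used here.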

Additional observations from a re-analysis of the deposited data

How the results depend on the processing

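No count of collagens called moved by more than 1.5 times under any alternative run. Leaving out each array in turn gave 5 to 7 higher and 15 to 18 lower in embryonic fragments against rest of brain, 7 to 8 rising and 10 to 13 falling with age, and 6 to 7 higher and 18 to 19 lower in adult fragments against rest of brain. Of 67 called collagen differences, 6 lost the call without at least 1 array, and these are named in the report. With the replicate number as a block on the embryonic arrays, 6 were higher and 17 lower, with Col8a2, Col19a1 and Col27a1 losing and Col6a3, Col8a1 and Col23a1 gaining the call. It changed no other call of a collagen. Without the filter, calls were lost for Col8a2 (adjusted p = 0.0830 in the embryo, 0.0558 with age), Col19a1 (0.0711 in the embryo), Col23a1 (0.0714 with age) and Col13a1 (0.0639, adult fragments against rest of brain). With the compared groups alone in the fit, Col8a2 and Col19a1 lost the embryonic call (0.0675 and 0.0656) and Col23a1 the age call (0.0787). Quantiles once more ended those of Col27a1 in the embryo (0.0591) and Col23a1 with age (0.0535).

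The choice of probe set moved the most sizes: 23 called collagen differences moved by over 1.5-fold with the mean of all probe sets of a gene and 20 with another probe set on its own, the latter chosen after seeing the data, against 11 with a floor at 4, 6 without probe sets with shared probes and 0 on leaving out an array. The mean of all probe sets also shrank differences of partner genes, which stayed called. In the embryo these were Adamts3 (-3.00), Loxl1 (-1.87), Ddr1 (-1.55), Lox (-1.11) and Dcn (-1.06), among others. With age they included Bmp1 (-1.62), Lox (0.69) and Ddr1 (0.53). Reversals of sign were confined to differences that were not called. Between the ages, Col1a1 came to 0.0343 with quantile normalization applied once more and Col9a1 to 0.0511 with cyclic loess and 0.0249 with quantiles once more. Leaving out 1 array gave -0.0128 to 0.170 for Col12a1 and -0.288 to 0.0311 for Col25a1, reversed without embryonic fragments replicate 2 and 3, respectively. For adult fragments against rest of brain, leaving out 1 array gave -0.0927 to 0.405 for Col8a2 (reversed without rest of brain replicate 3) and -0.000985 to 0.0324 for Col15a1 (reversed without adult fragments replicate 1). Col9a3 came to -0.0172 with the mean of its probe sets and to -0.427 without its probe set with shared probes or with the other one on its own. The cause was not tested. Values under 4 have no order here, and age, strain and kit cannot be told apart.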
